A study of Mus musculus with 20 samples.

Results

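Small RNA in state 3 was set against small RNA in state 2, over all 26278 features of the deposited small RNA table. State 3 holds mouse embryonic stem cells with low Nanog and low Sox2, and state 2 holds cells with low Nanog and high Sox2. The comparison rests on 4 of the 20 libraries of the series, 2 per state. Features were divided into 605 named microRNA hairpins, 156 hairpin identifiers that carry no name and 25517 other features, among them snoRNA, rRNA, mitochondrial tRNA and fragments of mRNA. Mouse embryonic stem cells were cultured in medium with fetal bovine serum and leukemia inhibitory factor (LIF), a cytokine that holds them in self-renewal, and were separated by flow cytometry. The series also has state 1, in which Nanog and Sox2 are both high, and an unsorted total population, and both are given here as context. No genotype, strain or other treatment stands in the labels, which do not say whether the libraries of a state came from separate cultures. Total RNA was extracted with Trizol, treated with DNase and made into small RNA libraries by ligation of adapters to both ends.

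MicroRNAs are cut from hairpin precursors by Drosha and Dicer and guide Argonaute proteins to messenger RNAs, mainly through the seed, bases 2 to 8 of the mature strand. In mouse embryonic stem cells the miR-290 cluster is the leading source of microRNA and the let-7 family is held low by the RNA-binding protein Lin28. When the cells leave the pluripotent state, let-7 rises and the miR-302 cluster is expressed for a time.

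The table holds 1 normalized value per feature and state, set by the authors from both libraries, so no spread between libraries can be shown and no test on libraries could be run. A difference was called where the posterior probabilities of the authors' deposited patterns that set state 3 and state 2 apart summed to 0.95 or more. These sums were made here and are not the authors' own calls. A log2 ratio is log2((state 3 + 1)/(state 2 + 1)), which understates the change of low features. The column totals were 2.61 M in state 3 and 3.43 M in state 2, against 5.13 M in state 1 and 4.15 M in the total population. The steps between low values put 6.64 to 8.50 M reads behind state 3 and 6.89 to 9.24 M behind state 2. At this depth a value of 0 allows up to 3 reads, or 0.921 to 1.18 in state 3 and 1.11 to 1.49 in state 2, for counting error only. In these bulk samples fewer cells of a type and less RNA per cell cannot be told apart.

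The mature strands below belong to hairpins on which the results turn. They are RefSeq sequences of build GRCm38.p6, written 5′ to 3′, with the seed in capitals. The first set shows that hairpins of the miR-290 cluster and of the miR-302 cluster share 1 seed, which matters because their ratios between state 3 and state 2 differed.
miR-291a-3p: aAAGUGCUuccacuuugugugc
miR-294-3p: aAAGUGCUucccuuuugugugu
miR-295-3p: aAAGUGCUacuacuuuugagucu
miR-302b-3p: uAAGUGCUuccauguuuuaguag
miR-302d-3p: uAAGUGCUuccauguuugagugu

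The 2nd set opens with 5p strands of the most abundant hairpins with a shared seed, mir-292a and mir-293 of the miR-290 cluster. The RefSeq sequences used lack the 3p strand of mir-292a, so only its 5p strand is shown. Then come strands of mir-92a-1, mir-25 and mir-363, whose seed is AUUGCAC.
miR-292a-5p: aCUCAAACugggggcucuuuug
miR-293-5p: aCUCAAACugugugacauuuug
miR-92a-3p: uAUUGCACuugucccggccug
miR-25-3p: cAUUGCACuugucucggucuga
miR-363-3p: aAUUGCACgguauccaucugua

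The 3rd set holds let-7 strands, which share the seed GAGGUAG. Counted from 1 at the 5′ end, let-7f differs from let-7a by G12A, and let-7g differs from let-7a by G12U and U18C.
let-7a-5p: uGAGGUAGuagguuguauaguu
let-7f-5p: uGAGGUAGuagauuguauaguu
let-7g-5p: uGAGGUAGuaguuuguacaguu
let-7e-5p: uGAGGUAGgagguuguauaguu

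The 4th set holds strands from within the Hox gene clusters. The miR-196a and miR-196b strands share their seed and differ by A12C, and the miR-10a and miR-10b strands share theirs and differ by U12A.
miR-196a-5p: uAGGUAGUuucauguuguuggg
miR-196b-5p: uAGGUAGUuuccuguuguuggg
miR-10a-5p: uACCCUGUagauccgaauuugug
miR-10b-5p: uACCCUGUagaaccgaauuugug

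The 5th set holds strands of the other 3 hairpins that were called higher in state 3. The seed of miR-351-5p is also that of miR-125a-5p.
miR-504-5p: aGACCCUGgucugcacucuauc
miR-212-3p: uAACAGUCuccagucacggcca
miR-351-5p: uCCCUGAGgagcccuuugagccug
miR-125a-5p: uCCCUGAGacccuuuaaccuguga

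MicroRNA took a smaller part of the small RNA in state 3. The named hairpins summed to 1.01 M in state 3, against 2.00 M in state 2, 3.33 M in state 1 and 2.53 M in the total population. Hairpins made up 38.7% of the small RNA total in state 3 and 58.4% in state 2. Ribosomal RNA made up 25.7% in state 3 and 10.4% in state 2, and the greater part of it was 1 rRNA feature, CT010467.1, with 661165 in state 3 and 349501 in state 2. That feature was not called. The snoRNA share was 19% in state 3 and 20.5% in state 2. The log2 ratio of the hairpin totals was -0.99, and without mir-292a, the most abundant hairpin, it was -0.74. The log2 ratio of the column totals was -0.39.

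**Figure D1:**
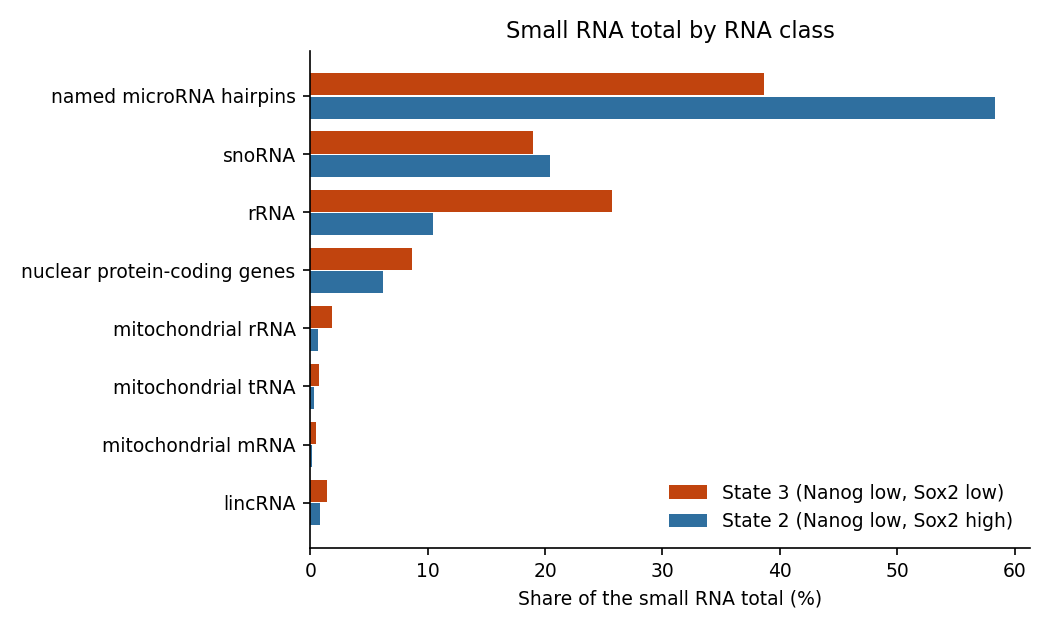
Share of the small RNA total by RNA class, in percent, in state 3 (upper bar) and state 2 (lower bar), 1 value per state and class. Hairpins fill 38.7% of state 3 and 58.4% of state 2, while rRNA fills 25.7% of state 3 and 10.4% of state 2.

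Of the 605 hairpins, 95 were called, 4 of them higher in state 3 and 91 lower. Over all features 0.97% were called, 0.304% higher and 0.666% lower, while 15.7% of hairpins were called, 0.661% higher and 15% lower. Of the other features 0.619% were called, 76 higher (0.298%) and 82 lower (0.321%). Depth weighs on this comparison, because 297 of the 605 hairpins reached a mean of 10 over the 4 groups and 3690 of the 25517 other features did. Among features with that mean the called share was 32% of hairpins (1.35% higher and 30.6% lower), 3.6% of other features (1.76% higher and 1.84% lower) and 5.74% of all features (1.72% higher and 4.02% lower). No call fell among the 308 hairpins under a mean of 10, of which 39 were at 0 in both states.

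The median log2 ratio of the 297 hairpins was -0.66, with quartiles of -1.14 and -0.16, and it turned to 0.31 where each column was scaled to its hairpin total. The other features had a median of 0.04 and all features 0.01. Ratios below 0 were found for 243 of the 297 hairpins and above 0 for 54. Relative to the hairpin total the split was the other way, with a larger share of the hairpin total in state 3 for 191 hairpins and a smaller share for 106. The called falls spanned log2 ratios of -2.50 to -0.54, and 76 of the 91 were of at least 2-fold. All 4 hairpins called higher had a mean under 100 over the 4 groups, a range that held 133 hairpins, 19 of them called lower. Of the 164 hairpins above that mean, 72 were called lower and 0 higher.

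**Figure D2:**
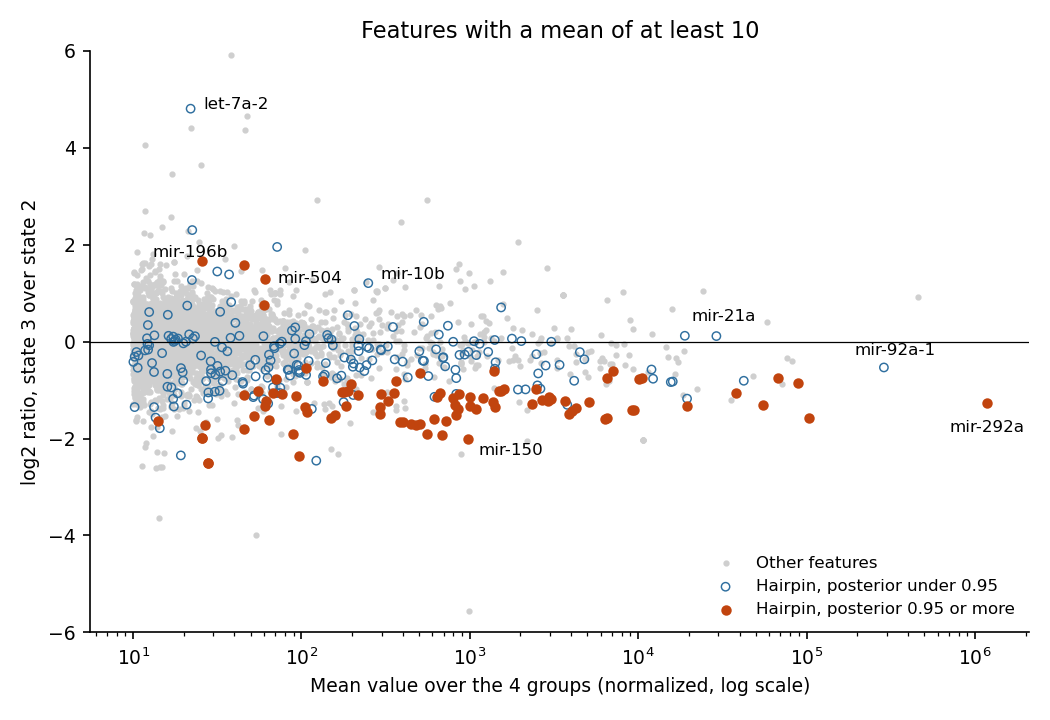
The log2 ratio of state 3 over state 2 (vertical) against the mean value over the 4 groups (horizontal, log scale) for features with a mean of at least 10, 1 point per feature. Hairpins with a posterior of 0.95 or more are filled and lie mostly below 0, whereas other features centre on a median of 0.04, with 2 of them outside the axis.

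The same 10 hairpins led in both states and held 84.7% of the hairpin total in state 3 and 86.2% in state 2. First stood mir-292a, at chr7:3219189-3219270 on the plus strand, with 430145 in state 3 and 1035592 in state 2. It reached 1855076 in state 1 and 1384684 in the total population. State 3 was the lowest of the 4 groups for this hairpin, 2.41-fold lower than state 2, and the fall was called. Next came mir-92a-1, at chr14:115044427-115044506, with 198659.9 in state 3 and 287575 in state 2, which was not called. The hairpin mir-21a, from a microRNA common in fibroblasts and tumour cells, had 40047 in state 3 and 37008 in state 2 and was not called. It ranked 3rd in state 3. The hairpin mir-148a fell, with 22488 in state 3 and 55665 in state 2. The hairpin mir-99b, which lies beside let-7e and mir-125a within the gene Spaca6, had 19617 in state 3 and 18050.1 in state 2 and was not called.

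The miR-290 cluster, on chromosome 7 between 3218626 and 3220841, was called lower at 5 of its 9 hairpins, and the other 4 were not called. All 9 ratios were below 0, with a median of -1.14 that stayed below 0 under each scaling. The cluster held 50.8% of the hairpin total in state 3 and 60.8% in state 2, against 66.5% in state 1. The largest fall was at mir-293, which had 27843 in state 3 and 83424 in state 2. The hairpin mir-290a also fell, with 359 in state 3 and 793 in state 2. The hairpin mir-291b had 307 in state 3 and 689 in state 2 and fell as well. Of this cluster, the hairpins whose 3p strands are shown above with the AAGUGCU seed were not called, and the table holds 1 value per hairpin with no division between its strands. Here mir-294 had 6445 in state 3 and 14572 in state 2, with a posterior of 0.899. The values of mir-295 were 6132 in state 3 and 10853 in state 2, with a posterior of 0.142. Those of mir-291a were 5837 in state 3 and 10415 in state 2, with a posterior of 0.0327. These 3 hairpins were lowest in state 3 of all 4 groups. The hairpin mir-292b fell, with 35231 in state 3 and 59553 in state 2, but under scaling to the hairpin total its ratio turned to 0.23. RefSeq places it on the minus strand within the mir-292a locus, and the assignment of reads to either locus is not stated.

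Of the miR-302 cluster, the mir-302b and mir-302d strands shown share the AAGUGCU seed, while mir-367 carries the seed AUUGCAC. The RefSeq sequences used lack the 3p strand of mir-302a, so its seed was not compared. The cluster lies within Larp7 on chromosome 3, and none of its 5 hairpins was called. Its median log2 ratio was 0.15, and it was 0.53 under scaling to the column total, 1.12 under scaling to the hairpin total and -0.02 under scaling to the total of the other features. The cluster held 0.29% of the hairpin total in state 3 and 0.136% in state 2. The leading member mir-302a had 1585 in state 3 and 1575 in state 2, far above the 306 of state 1. The hairpin mir-302b had 992 in state 3 and 898 in state 2, against 170.5 in state 1. The hairpin mir-302d had 310.2 in state 3 and 212 in state 2, against 48.8 in state 1. Both Nanog-low states thus stood above state 1 and the total population for these 3 hairpins, and their posteriors for a difference between state 3 and state 2 were 0.00111, 0.00262 and 0.188. The hairpin mir-367 was near the floor, with 3.47 in state 3 and 3.72 in state 2.

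Clusters related to miR-17-92, whose microRNAs support proliferation and survival, moved unevenly. No hairpin of the miR-17-92 cluster was called among 5. Its median log2 ratio was -0.08, and it turned to 0.31 under scaling to the column total and to 0.90 under scaling to the hairpin total. The hairpin mir-17 had 1132 in state 3 and 1106 in state 2, and mir-20a had 3213 in state 3 and 3733 in state 2. In the miR-106a-363 cluster of the X chromosome 1 of 6 hairpins was called lower. That hairpin was mir-363, with 2806 in state 3 and 6631 in state 2. In the miR-106b-25 cluster, within Mcm7, 2 of 3 hairpins were called lower and the median of -0.61 turned to 0.38 under scaling to the hairpin total. Of these mir-25 had 16115 in state 3 and 33794 in state 2, and mir-106b had 3755 in state 3 and 5720.35 in state 2.

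**Figure D3:**
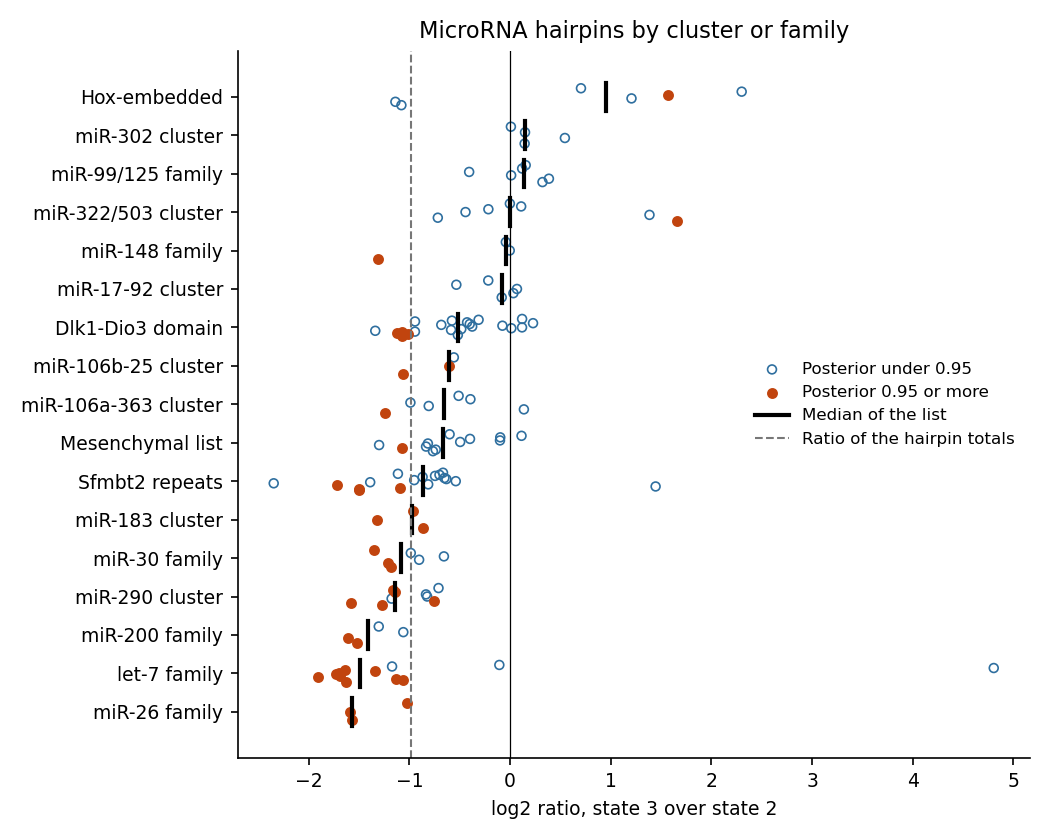
The log2 ratio of state 3 over state 2 for each hairpin with a mean of at least 10, by cluster or family, 1 point per hairpin. Black bars are list medians, from -1.57 for miR-26 to 0.96 for the Hox-embedded hairpins, the dashed line is the ratio of the hairpin totals (-0.99), and medians right of that line turn above 0 under scaling to the hairpin total.

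The let-7 family, which promotes differentiation and restrains growth, was lower in state 3. Of 12 hairpins 9 were called lower and 3 were not called, with a median log2 ratio of -1.49 that stayed below 0 under each scaling. The hairpin let-7g had 156 in state 3 and 487 in state 2, against 1384 in state 1 and 866 in the total population. The hairpin let-7i had 146 in state 3 and 549 in state 2. The hairpin let-7f-2, within Huwe1, had 113 in state 3 and 377 in state 2. State 3 was the lowest of the 4 groups for these 3 hairpins. Not called were let-7e, with 213 in state 3 and 229 in state 2, and let-7b, with 13.5 in state 3 and 31.6 in state 2. The other one not called was let-7a-2, which had 57.7 in state 3 and 1.1 in state 2, with a posterior of 0.938. It gives rise to the same mature strand as let-7a-1, which was called lower with 145 in state 3 and 472 in state 2. No source used here says how the reads of a shared mature strand were assigned to its hairpins. The family was rare in both states, at 0.153% of the hairpin total in state 3 and 0.189% in state 2.

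The RNA-binding proteins that block let-7 maturation and other processing genes were read in the RNA-seq table, made from other libraries of the same states. Of 29692 genes 8.59% were called there, 5.41% higher in state 3 and 3.19% lower. Of 20 genes of microRNA processing 1 was called. That gene was Prkra, which encodes a partner of Dicer, with 224 in state 3 and 149.9 in state 2. Lin28a, which blocks let-7 maturation, had 8968 in state 3 and 8599 in state 2 and was not called. Dicer1 had 3588 in state 3 and 3759 in state 2, and Dgcr8, the partner of Drosha, had 1753 in state 3 and 1830.2 in state 2. Neither was called.

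The miR-26 family was called lower at 3 of 3 hairpins, and its median of -1.57 stayed below 0 under each scaling. The hairpin mir-26a-1 had 1414 in state 3 and 4264 in state 2, against 11854 in state 1. The hairpin mir-26a-2 had 1483 in state 3 and 4405 in state 2, and mir-26b had 637 in state 3 and 1300.1 in state 2. These hairpins lie in genes of the Ctdsp phosphatase family, whose RNA did not fall with them. Ctdsp1, the host of mir-26b, was called higher in RNA-seq, with 1467 in state 3 and 1078 in state 2. Ctdsp2 had 1573 in state 3 and 1484 in state 2, and Ctdspl had 275 in state 3 and 196 in state 2, and neither was called. In the miR-30 family 3 of 6 hairpins were called lower, with a median of -1.09 that stayed below 0 under each scaling.

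The miR-200 family, known for holding cells in an epithelial state by repressing Zeb1 and Zeb2, had 2 of 5 hairpins called lower and a median of -1.41 that stayed below 0 under each scaling. The hairpin mir-200c had 326 in state 3 and 993 in state 2, against 550.2 in state 1. The hairpin mir-200a had 434 in state 3 and 1246 in state 2, against 755 in state 1. For both, state 2 was the highest of the 4 groups and state 3 the lowest. The hairpin mir-200b had 2198 in state 3 and 5429.7 in state 2 and was not called, with a posterior of 0.392. In RNA-seq Zeb2 was called higher, with 477 in state 3 and 148 in state 2. Zeb1 had 149.8 in state 3 and 134 in state 2 and was not called.

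The miR-183 cluster on chromosome 6 was called lower at 3 of 3 hairpins, with a median of -0.97 that turned to 0.02 under scaling to the hairpin total. The hairpin mir-182 had 5651 in state 3 and 14177 in state 2. The hairpin mir-183 had 32194 in state 3 and 58489 in state 2, and mir-96 had 510.1 in state 3 and 999.5 in state 2. The cluster took 3.80% of the hairpin total in state 3 and 3.68% in state 2, against 5.72% in state 1. The 2 copies of mir-7a, which give 1 mature strand, summed to 6574 in state 3 and 17523 in state 2, and both were called lower.

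Only 4 hairpins were called higher in state 3. The hairpin mir-504 on the X chromosome, at chrX:59097705-59097726 for the strand shown above, had 141 in state 3 and 57.4 in state 2, against 18.6 in state 1. It lies within Fgf13, which was also called higher in RNA-seq, with 152.4 in state 3 and 74.1 in state 2. The hairpin mir-196b had 77.0 in state 3 and 25.2 in state 2. The hairpin mir-351 had 54.2 in state 3 and 16.5 in state 2, and mir-212, known from neurons, had 92.2 in state 3 and 54.3 in state 2. For all 4, state 3 was the highest of the 4 groups. The hairpin mir-125a, which shares the seed of miR-351-5p, had 1956 in state 3 and 1941 in state 2 and was not called.

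Hairpins within the Hox clusters, whose genes set position along the body axis, had 1 of 6 called higher and 0 lower. Their median log2 ratio of 0.96 stayed above 0 under each scaling, but turned to below 0 when a mean of 50 was required, which leaves fewer members. The hairpin mir-10b, within Hoxd4, had 506 in state 3 and 219 in state 2, with a posterior of 0.919. The hairpin mir-615 had 64.4 in state 3 and 12.3 in state 2, with a posterior of 0.783. The hairpin mir-10a had 2375 in state 3 and 1457 in state 2 and was not called. State 3 was the highest of the 4 groups for these 3 hairpins. The miR-196a hairpins stood on the other side of 0. The hairpin mir-196a-1 had 175 in state 3 and 370.3 in state 2, against 1732 in state 1, and mir-196a-2 had 128 in state 3 and 284 in state 2, against 1297 in state 1. Neither was called. Of the 39 Hox genes in RNA-seq 19 were called higher, 0 lower and 20 were not called, with a median log2 ratio of 1.69 over the 39 and 0 over all genes of that table. Their values were low in both states. Hoxa9 had 35.2 in state 3 and 1.8 in state 2, and was called higher. Hoxd4, whose span holds mir-10b, had 4.45 in state 3 and 1.48 in state 2 and was not called. Also not called was Hoxc13, with 13.4 in state 3 and 14.8 in state 2.

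**Figure D4:**
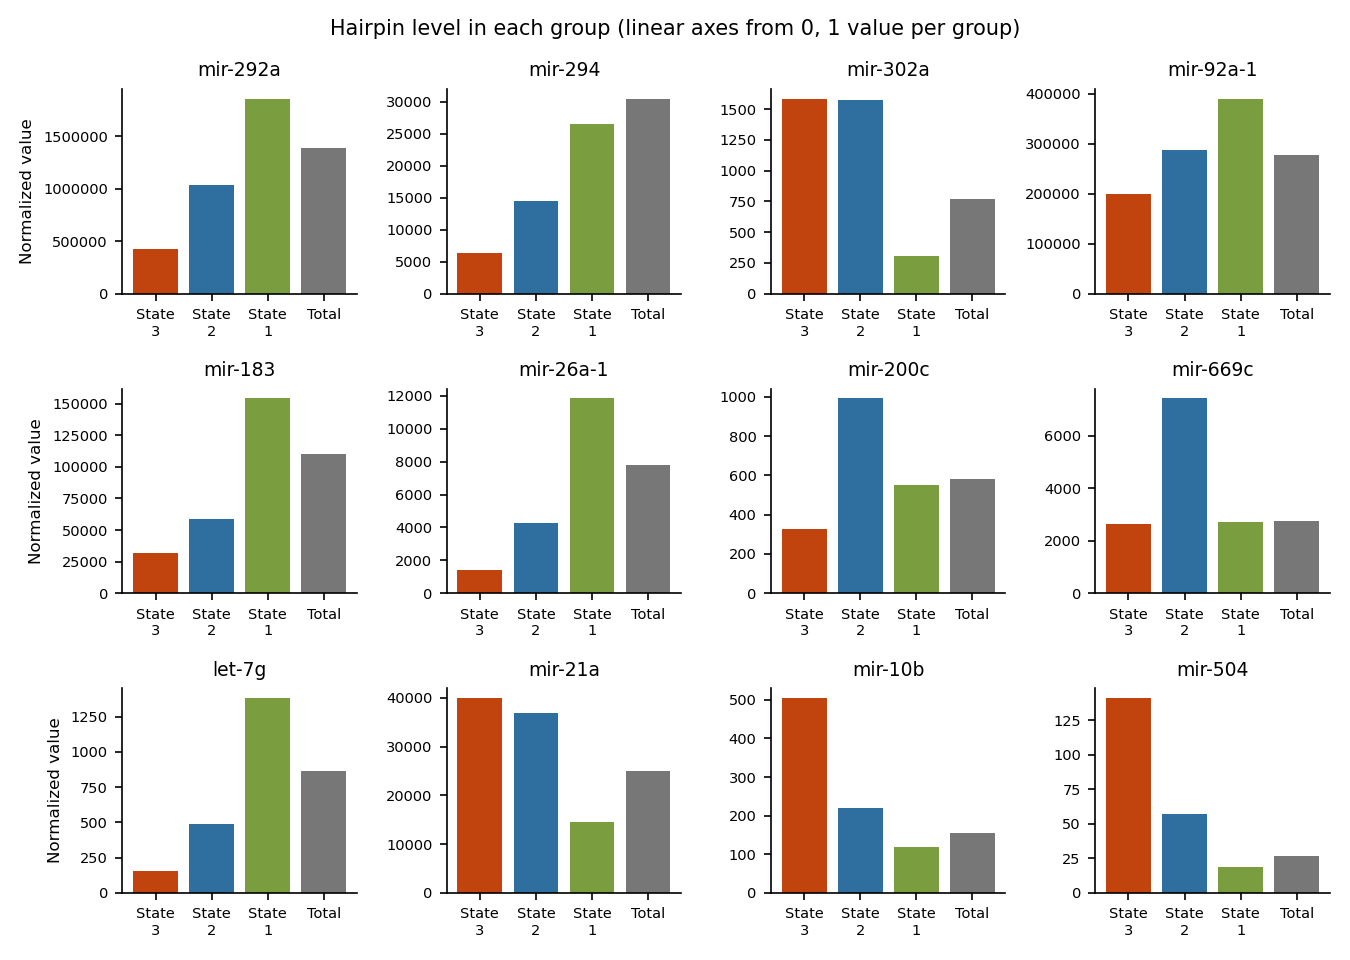
Normalized value (vertical, linear from 0, with a scale of its own in each panel) of 12 hairpins in state 3, state 2, state 1 and the total population, 1 bar per group and no error bar because the table holds 1 value per group. State 3 is lowest for mir-292a, mir-26a-1 and let-7g, level with state 2 and above state 1 for mir-302a, and highest for mir-10b and mir-504.

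The Sfmbt2 repeat hairpins, repeated copies within a Polycomb gene, had 4 of 39 called lower and 0 higher. Over all 605 hairpins 15% were called lower and 0.661% higher. Of the 39 hairpins 17 reached a mean of 10, and their median of -0.87 turned to 0.10 under scaling to the hairpin total. The hairpin mir-669c had 2623 in state 3 and 7418 in state 2, against 2706 in state 1 and 2759 in the total population. The hairpin mir-467c had 184 in state 3 and 523 in state 2, against 211 in state 1. State 2 was thus the highest of the 4 groups for these 2 hairpins. The RNA of Sfmbt2 was not called, with 1879 in state 3 and 2133 in state 2. These hairpins are near-identical copies, so single members are uncertain. In the imprinted Dlk1-Dio3 domain 4 of 36 hairpins were called lower and 0 higher, beside the same 15% lower over all hairpins. The median of this domain was -0.52 and turned to 0.46 under scaling to the hairpin total.

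Hairpins that lie within a gene were set beside the RNA of that gene. In RNA-seq 3.19% of all genes were called lower in state 3 and 5.41% higher, and most were not called. Of 34 called-lower hairpins within a gene of at least 10 in RNA-seq, the gene was called lower for 3, higher for 2 and was not called for 29. Across the 115 such hairpins, Spearman's rho between the log2 ratios of hairpin and gene was 0.41. Genes were matched as those that span a hairpin, and such a gene need not be the source of the hairpin. Hairpins of 1 gene share that gene's value, so the points are not independent. The hairpin mir-335 within Mest had 6723 in state 3 and 10022 in state 2 and was not called, while Mest was called higher, with 3148 in state 3 and 1795 in state 2.

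Marker genes of embryonic stem cells and of fibroblasts were read in RNA-seq. There 5.41% of all genes were called higher in state 3 and 3.19% lower. Of 10 genes of embryonic stem cells 5 were called lower and 5 were not called. Sox2 had 1306 in state 3 and 3167 in state 2, Nanog had 440.0 in state 3 and 743 in state 2, and both fell. The states are defined by low and high Sox2, so the fall of Sox2 was set by that definition. Pou5f1, the pluripotency factor Oct4, had 9826 in state 3 and 10275 in state 2 and was not called. Of 17 fibroblast genes 9 were called higher and 1, Fn1, lower. The summed level of all 17 was 27487 in state 3 and 27234 in state 2, most of it Fn1. Without Fn1 it was 9796 in state 3 and 2441 in state 2. That reduced sum was 415 in state 1 and 1421 in the total population. Its largest members in state 3 were Thbs1 and Tagln. Thbs1 had 3678.5 in state 3 and 819 in state 2, and Tagln had 3445 in state 3 and 978 in state 2. Lum, a proteoglycan of fibroblasts, was at 1.46 in state 3 and 0 in state 2. Dcn, another of these, was at 12.4 in state 3 and 2.09 in state 2 and was not called. Of 13 fibroblast and smooth muscle hairpins 1 was called lower and 0 higher. Their summed level was 46730 in state 3 and 48035 in state 2. Of this sum mir-21a made up 85.7% in state 3 and 77% in state 2, and without it the sum was 6682 in state 3 and 11027 in state 2. The hairpin mir-214, typical of fibroblasts, was at 0.39 in state 3 and 0 in state 2. Whether fibroblasts were present, or the sorted cells expressed these genes themselves, was not tested. The part of either in the small RNA differences was not tested.

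Known targets of these microRNAs were read in RNA-seq as a list of 19 entries. Of these 4 were called higher, 0 lower and 15 were not called, against 5.41% higher and 3.19% lower over all genes. Hmga2, a chromatin protein and let-7 target, had 2451 in state 3 and 672 in state 2. Lats2, a kinase of the Hippo pathway and target of the miR-290 cluster, stood under 2 identifiers that were both called higher, the main one with 414 in state 3 and 186 in state 2. Lin28b had 1492 in state 3 and 1423 in state 2 and was not called. Trim71, another let-7 target, had 14414 in state 3 and 14779 in state 2 and was not called.

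Outside the hairpins, fragments of mitochondrial RNA were higher in state 3 than in state 2, but not clearly above the total population. Mitochondrial mRNA summed to 13620 in state 3, 4831 in state 2, 7322 in state 1 and 14840 in the total population. Mitochondrial tRNA summed to 19430 in state 3, 9705 in state 2, 14880 in state 1 and 18940 in the total population. All 37 mitochondrial features together took 3.10% of the small RNA total in state 3 and 1.10% in state 2. Of 22 mitochondrial tRNA genes 5 were called higher and 0 lower, with a median log2 ratio of 1.06. The transfer RNA mt-Th had 3820.03 in state 3 and 916 in state 2. Of 13 mitochondrial mRNA genes 9 were called higher and 0 lower, with a median of 1.41, and both medians stayed above 0 under each scaling. The mRNA mt-Co1 had 4066 in state 3 and 1412 in state 2, against 1885 in state 1 and 4060.1 in the total population. The mRNA mt-Atp6 had 829.7 in state 3 and 108 in state 2, against 1090 in the total population. State 2 was the lowest of the 4 groups for these 3 features. Reads of mt-Co3, with 762 in state 3 and 0.27 in state 2, and of mt-Co2, with 118 in state 3 and 0 in state 2, can be shared with nuclear copies, and their values are uncertain. The state 1 values were 299 for mt-Co3 and 581 for mt-Co2. In RNA-seq none of the 13 mitochondrial mRNA genes was called in either direction, and their median log2 ratio was 0.02.

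The counts that follow stand beside 0.304% called higher and 0.666% lower over all features. Over all features with a mean of at least 10 the shares were 1.72% and 4.02%. The snoRNA genes, which guide modification of ribosomal RNA, had 2 of 428 called higher and 11 called lower. Their median was -0.08 over the 240 with a mean of at least 10. Among listed C/D box genes Snord49a fell, with 14653 in state 3 and 33562 in state 2. Snord68 was called higher, with 161 in state 3 and 6.88 in state 2. It had 17.2 in state 1 but 0 in the total population, so its values are uncertain. Listed H/ACA box genes had 0 of 39 called and a median of 0.27 that stayed above 0 under each scaling. Of the nuclear protein-coding genes 47 of 16061 were called higher and 43 lower, with a median of 0.06. The linker histone gene Hist1h1c had 181 in state 3 and 909 in state 2, and was called lower. Among ribosomal protein genes 6 of 90 were called lower and 0 higher, with a median of -0.25 that turned to 0.14 under scaling to the column total and to 0.72 under scaling to the hairpin total. Rpl5 had 643 in state 3 and 1526 in state 2 and was called lower. The small RNA genes Gm22270, Gm26387 and Snord21 lie within its span, and their reads can be counted with it.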

How the data were processed

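Small RNA libraries (2 per state, 8 in all) and RNA-seq libraries (3 per state, 12 in all) came from sorted cells and the total population, per the labels. Per the file headers, the authors deposited a normalized signal per feature and group, and a score, the posterior probability between 0 and 1, per feature for 15 patterns that set groups equal or apart. The scaling and merging of libraries was not stated in them. In the submitters' processing notes stand the builds mm10 and GRCm38 and the tools STAR 2.4.1d and RSEM 1.2.30, with no role given. The pattern order was inferred as state 3, state 2, state 1, total population: groups set equal lay closer than groups set apart in 100% of 161 small RNA features (1 pattern at 0.95 or more, mean 5 or more), against 62.7% under the best order that would change these calls.

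From these, posteriors were summed and ratios computed with Python 3.11.15, pandas 2.3.3 and scipy 1.17.1, with a pseudocount of 1 and, for medians, a mean of at least 10 over the 4 groups. The code for the pattern sums was checked on simulated posteriors that already favoured the true pattern. That check does not measure how often the calls are wrong. The test planned for libraries was not run, since the table holds no counts per library, and no p-value was computed. Members and lists were chosen with earlier results of these data known. Named hairpins were the 10 largest called changes in each direction with at least 50 in either state, the 10 most abundant of each state, and the leading members of each list; mir-214, mir-367, mir-483, Hoxc13 and others given as context were named after their values were seen. RefSeq names matched 527 of 605 hairpins, 495 with a position. Depth came from steps between low values, which 2 step sizes per group accounted for in 80.1% to 83.4% of values under 2.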

Additional observations from a re-analysis of the deposited data

How the results depend on the processing

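No paired analysis was possible because the table holds 1 value per state and its columns carry no replicate letters. For the same reason no library could be left out. Scaling moved the results most: the median log2 ratio of all features shifted by 0.38 under the column total, 0.96 under the hairpin total and -0.16 under the total of other features. Under these 3 scalings the hairpin median was -0.27, 0.31 and -0.82, and the median of other features 0.42, 1.00 and -0.11. With no filter on low values the hairpin median was -0.46 and that of other features 0. The median of other features was 0.027 under quantile rescaling and -0.000559 with a mean of at least 50. Hairpins called higher numbered 8 at a posterior of 0.9 and 10 under a fold rule of 2 or more with no posterior. That fold rule gave 152 other features higher and 151 lower. Directions under each scaling were added after seeing the data. Under the hairpin total 19 called hairpins were higher and 76 lower (20% higher, against 4.21% as deposited), and 99 called other features were higher and 59 lower (62.7%, against 48.1%). Single features were checked only among those named by rule, so the list that follows does not hold every called feature that turned. Named hairpins that turned above 0 under the hairpin total were mir-96 (0.017), mir-181c (0.10), mir-183 (0.13), mir-1839 (0.18), mir-292b (0.23), mir-24-2 (0.33), mir-106b (0.38) and mir-375 (0.45). Named other features that turned above 0 under it were Scarna3a (0.00012), Rps20 (0.18), Rps24 (0.19), Scarna2 (0.44) and Rmrp (0.49). These follow from the construction of that scaling, which raises every log2 ratio by the difference of the hairpin totals. The causes of the other shifts were not tested. Depth limits the low features, since a value of 0 allows up to 3 reads.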

Other observations

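Hairpins typical of other tissues were counted beside all 605 hairpins, of which 15% were called lower and 0.661% higher. Among all hairpins with a mean of at least 10 the shares were 30.6% lower and 1.35% higher. Of 13 neural hairpins 4 were called lower, 1 (mir-212) was called higher and 8 were not called. Of 10 blood and endothelial hairpins 3 were called lower and 7 were not called, and of the 6 with a mean of at least 10 the ratios were below 0 for 4 and above 0 for 2. The hairpin mir-150, typical of lymphocytes, had 128 in state 3 and 515 in state 2, against 1963 in state 1. The hairpin mir-126a, of endothelial cells, had 293 in state 3 and 725 in state 2. Both were called lower. The hairpin mir-146a had 131 in state 3 and 126 in state 2, and mir-486b had 143 in state 3 and 139 in state 2, and neither was called. In the miR-15/16 family 2 of 6 hairpins were called lower, among them mir-195a with 178 in state 3 and 675 in state 2, and the median of -0.67 turned to 0.30 under scaling to the hairpin total. The hairpin mir-374c, within Ftx beside the X inactivation centre, had 21.7 in state 3 and 115 in state 2, and was called lower while Ftx RNA was not called. Of 9 hairpins of endoderm and endocrine cells 4 were called lower, 5 were not called, and the median of -0.75 turned to 0.23 under scaling to the hairpin total. Among them mir-375, of endocrine cells, was called lower with 146 in state 3 and 213 in state 2, both above the 22.7 of state 1, though its ratio turned to 0.45 under scaling to the hairpin total.

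Values close to the posterior limit show how the calls divide. Just above 0.95 stood mir-292b (0.952), mir-382 (0.952) and mir-96 (0.955). Just below stood mir-124-1 (0.946), mir-145a (0.942) and mir-381 (0.941). The hairpin mir-483 within Igf2 had 180.6 in state 3 and 45.9 in state 2, with a posterior of 0.908. Igf2 RNA had 5784 in state 3 and 2209 in state 2 and was not called.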
